A study of Fragaria x ananassa with 6 samples.

Results

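In the fleshy receptacle of strawberry fruits, 190 of 28588 transcript IDs were displaced from the control level in opposite directions in different libraries of the same silenced genotype. They were chosen on abundance in counts per 1000000 counts of the library (CPM). An ID was taken when its mean over the Control libraries was at least 5 CPM, and when FaWRKY71-RNAi replicates 1 and 2 lay on opposite sides of that mean, with the higher at 1.5 times the mean or more and the lower at the mean divided by 1.5 or less. The 100 IDs with the highest control mean and 7 IDs given by name were left out, which removed 3 IDs that met the folds and left 10954 IDs to choose from. Of the 190 opposite-moving IDs, 33 were higher in FaWRKY71-RNAi replicate 1 and lower in replicate 2, and 157 were higher in replicate 2 and lower in replicate 1. With upper-quartile scaling in place of the column sum these numbers were 35 and 101, and 97 IDs were shared with the 190. The values of these libraries chose the IDs, so their levels there are a description and were not tested.

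The plants were Fragaria x ananassa of the cultivar Chandler, none of them treated, with 3 libraries per genotype. FaWRKY71-RNAi plants carried the silencing vector pFRN with a conserved piece of the FaWRKY71 coding sequence, and Control plants carried pFRN without an insert. Both were stable transformants made with Agrobacterium tumefaciens strain AGL0, so the controls share the transformation and the vector. The sources used here do not say which stage the fruits had reached, how old the plants were, how many transgenic lines were sampled or whether libraries were sequenced in batches.

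WRKY proteins are a large family of plant transcription factors that bind W-box elements in promoters and are best known for roles in defence and in responses to drought and other stresses. A hairpin RNA made from a transgene is cut into small RNAs that guide the degradation of matching transcripts. The receptacle is the fleshy tissue under the achenes, and its transcript levels change widely during ripening.

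The FaWRKY71-RNAi libraries held 9498057, 8385218 and 8905429 counts, and the Control libraries 10000538, 9574751 and 9320022. Over all tested IDs edgeR's biological coefficient of variation, which leaves out counting noise, was 26.7% among FaWRKY71-RNAi libraries and 6.56% among controls. The files used here do not pair the IDs with gene names, so no ID has a name or role below, and the level of FaWRKY71 itself and tissue markers were not analysed. In bulk tissue, fewer cells of a type and less RNA per cell cannot be told apart.

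Opposite movement was rare beside movement to the same side. Of the 11058 IDs with a control mean of at least 5 CPM, abundant and named ones included, 2235 were at least 1.5 times the control mean in both FaWRKY71-RNAi replicate 1 and replicate 2, and 1158 were at or below the mean divided by 1.5 in both. Opposite displacement was met by 35 IDs with replicate 1 high, 0.317% of these IDs, and by 158 IDs with replicate 2 high, 1.43%. With the same rule, FaWRKY71-RNAi replicates 1 and 3 gave 10 opposite-moving IDs and replicates 2 and 3 gave 45. The 190 IDs held 8 of those 10 and all of those 45. For comparison among controls, whose own mean includes them, 1, 11 and 9 IDs lay as far apart on opposite sides of the control mean in the pairs 1 and 2, 1 and 3, and 2 and 3.

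**Figure D1:**
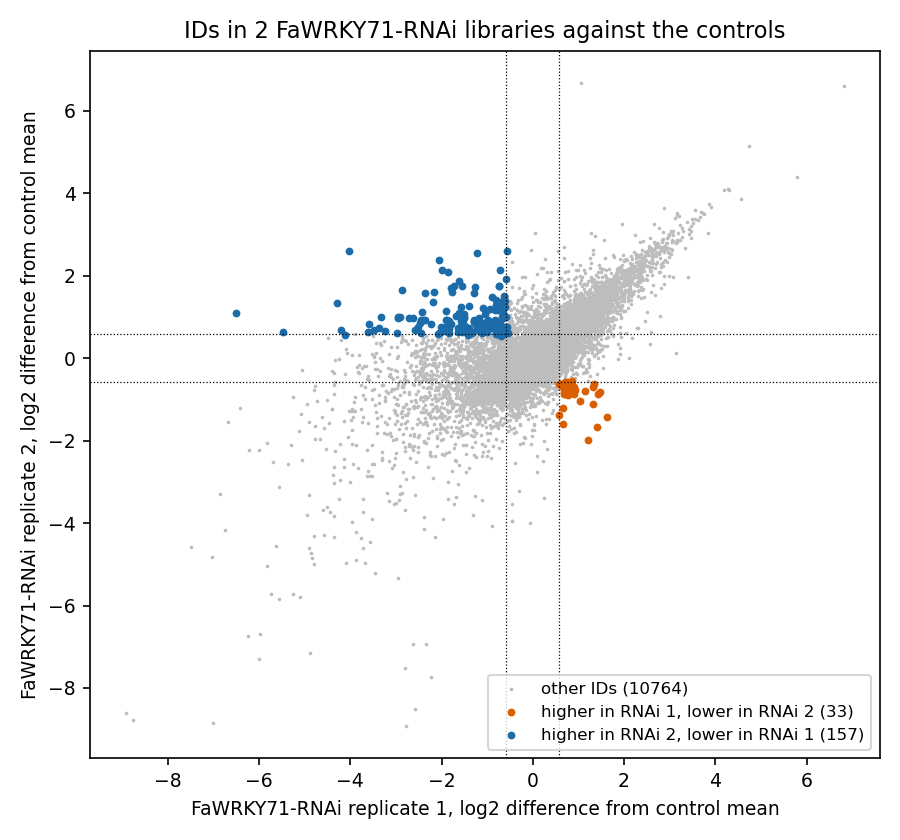
Each point is 1 of the 10954 IDs that the rule could choose from, with its log2 difference from the control mean (CPM + 0.5) in FaWRKY71-RNAi replicate 1 on the horizontal axis and in replicate 2 on the vertical axis; dotted lines mark 1.5-fold. Most displaced IDs lie along the rising diagonal, and the opposite-moving IDs fill the upper left corner (157, blue) and the lower right corner (33, orange).

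The 2 directions differed in size. Among the 157 IDs higher in FaWRKY71-RNAi replicate 2, the median was 1.84 times the control mean in that library, and the median in replicate 1 was 2.67-fold below the control mean. The distance from the controls on the log2 scale was larger in replicate 1 for 110 of these IDs and larger in replicate 2 for 47. Replicate 1 was at least 2-fold below the control mean for 107 of them and at least 10-fold below for 15, while replicate 2 was at least 2-fold above it for 52. Among the 33 IDs higher in replicate 1, the median was 1.78 times the control mean in replicate 1 and 1.76-fold below it in replicate 2, with no ID more than 4.05-fold below. The ratio between the libraries was at least 4-fold for 108 of the 157 IDs and for 12 of the 33, and at least 10-fold for 38 of the 157 and 0 of the 33.

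Summed over the 157 IDs, transcript abundance was 3184, 18670 and 7852 CPM in FaWRKY71-RNAi replicates 1 to 3, against 9084, 9151 and 10010 CPM in Control replicates 1 to 3. The mean of the FaWRKY71-RNAi sums, 9902 ± 7944 CPM, lay close to that of the controls, 9415 ± 516 CPM (SD, n = 3 each), although the single libraries were far below and far above. A rule that takes libraries from both sides of the controls favours a close mean and a wide SD, so nothing is read from either. Summed over the 33 IDs, abundance was 2142, 526.2 and 1616 CPM in FaWRKY71-RNAi replicates 1 to 3, against 1071, 1059 and 1031 CPM in Control replicates 1 to 3. Here FaWRKY71-RNAi replicates 1 and 3 were above every control and replicate 2 was below them.

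**Figure D2:**
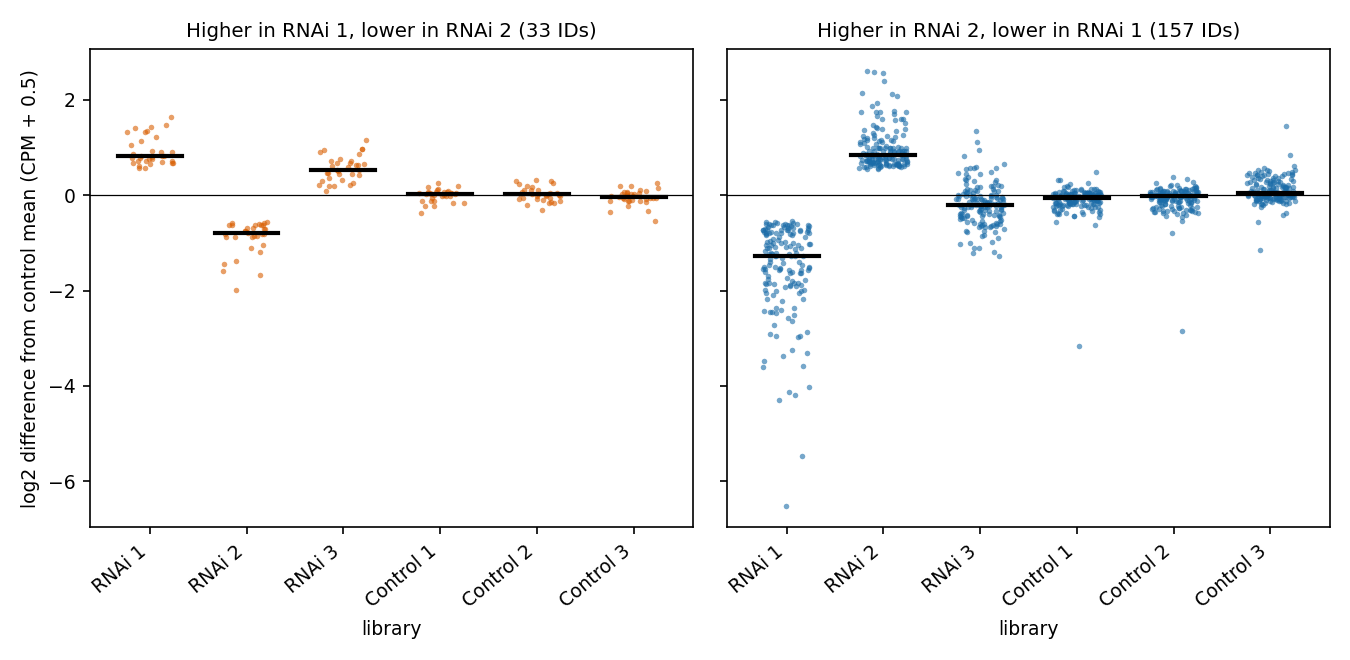
Each point is 1 opposite-moving ID, with its log2 difference from the control mean (CPM + 0.5) on the vertical axis and the library on the horizontal axis, FaWRKY71-RNAi to the left; bars are medians. In the 33 IDs of the left panel FaWRKY71-RNAi replicate 3 sits above the controls, with a median of 0.54, and in the 157 IDs of the right panel it sits around and below them, with a median of -0.21.

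The IDs higher in FaWRKY71-RNAi replicate 1 are shown by the pair with the largest ratio between the libraries and the pair with the highest control mean. FvH4_7g32920.1 had 142.3, 15.1 and 97.9 CPM in FaWRKY71-RNAi replicates 1 to 3, against 64.6, 62.2 and 57.2 CPM in the controls. The 3 controls lay within a narrow band, with replicates 1 and 3 above it and replicate 2 at a level 9.40-fold below replicate 1. FvH4_1g21480.1 had 144.6, 16.7 and 103.9 CPM in the FaWRKY71-RNAi libraries, against 52.9, 40.8 and 44.7 CPM in the controls. FaWRKY71-RNAi replicate 1 was 3.14 times the control mean and replicate 3 was 2.25 times it, whereas replicate 2 was 2.76-fold below it. FvH4_7g20870.1, the most abundant of the 33, had 524.3, 123.8 and 404.2 CPM in the FaWRKY71-RNAi libraries, against 257.8, 252.0 and 254.5 CPM in the controls. Its controls differed by a few CPM, and replicates 1 and 2 were 2.06-fold above and 2.06-fold below them. FvH4_1g11080.1 had 140.4, 46.5 and 99.0 CPM in the FaWRKY71-RNAi libraries, against 89.5, 88.1 and 79.1 CPM in the controls. FaWRKY71-RNAi replicate 3 was 1.16 times the control mean for this ID.

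With a fold of at least 2 each way, 37 IDs were left, 5 of them higher in FaWRKY71-RNAi replicate 1 and 32 higher in replicate 2. Of the 5, 3 are named above, and the others, named after their values were seen, are FvH4_4g18540.1 and FvH4_2g18490.1. FvH4_4g18540.1 had 159.8, 18.6 and 110.2 CPM in the FaWRKY71-RNAi libraries, against 62.9, 60.4 and 57.4 CPM in the controls. This profile lay close to that of FvH4_7g32920.1 in all 6 libraries. FvH4_2g18490.1 was a low transcript, with 18.2, 2.98 and 13.6 CPM in the FaWRKY71-RNAi libraries, against 6.20, 8.88 and 5.90 CPM in the controls. For all 5, FaWRKY71-RNAi replicate 3 lay between replicate 1 and the controls.

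The IDs higher in FaWRKY71-RNAi replicate 2 held the widest differences. FvH4_7g15690.1 had 4.84, 1046 and 307.3 CPM in FaWRKY71-RNAi replicates 1 to 3, against 497.1, 493.7 and 466.7 CPM in the controls. It rests on 46 counts in FaWRKY71-RNAi replicate 1 and 8767 in replicate 2, a 215.9-fold difference between libraries that carry the same label. The level in replicate 1 was 100.3-fold below the control mean, with an exact 95% interval from 75.2 to 137.2 that covers counting error only. FvH4_6g42090.1, the most abundant of the 157, had 279.3, 1285 and 598.2 CPM in the FaWRKY71-RNAi libraries, against 849.7, 828.4 and 786.4 CPM in the controls. FaWRKY71-RNAi replicates 1 and 3 were below every control and replicate 2 was 1.56 times the control mean. FvH4_2g33770.1 had 169.7, 888.7 and 437.7 CPM in the FaWRKY71-RNAi libraries, against 500.4, 495.5 and 485.7 CPM in the controls. Its level was 2.91-fold below the control mean in FaWRKY71-RNAi replicate 1 and 1.80 times the mean in replicate 2.

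FvH4_4g03600.1, the other ID named for its ratio, had no count in FaWRKY71-RNAi replicate 1, so its ratio is bounded only from below and its rank rests on the 0.5 CPM added to each value. It had 0, 48.3 and 3.28 CPM in FaWRKY71-RNAi replicates 1 to 3, against 0.41, 0.63 and 21.8 CPM in Control replicates 1 to 3. Only FaWRKY71-RNAi replicate 2 and Control replicate 3 held this transcript above 5 CPM. Its control mean of 7.60 CPM came from Control replicate 3, so this ID was chosen through a single control library. Its counts are not whole numbers, as happens when a read is divided between similar IDs.

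**Figure D3:**
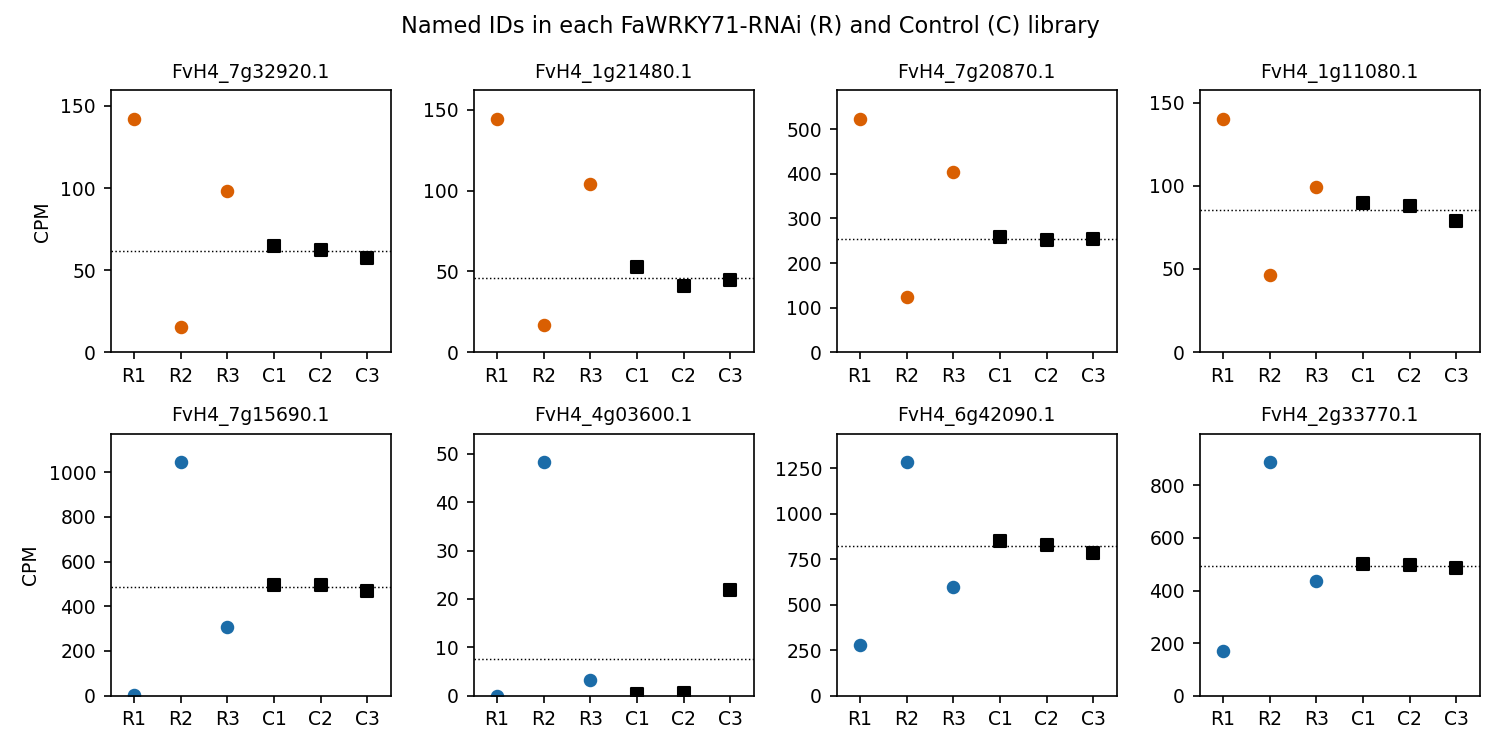
CPM on the vertical axis for the 8 IDs named by rule in FaWRKY71-RNAi libraries (R1 to R3, coloured circles) and Control libraries (C1 to C3, black squares); the dotted line is the control mean and each panel has its own axis, which starts at 0. In 7 panels the controls lie close together and between R1 and R2; in FvH4_4g03600.1 Control replicate 3 stands at 21.8 CPM and the other controls below 1 CPM.

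Most of the differences rested on more than a handful of counts, but low counts were more frequent than over all IDs. The lower of FaWRKY71-RNAi replicates 1 and 2 had a median of 71.5 counts over the 190 IDs, against 258 over the 10954. It had fewer than 30 counts for 37 of the 190 IDs, against 598 of the 10954. Fewer than 10 counts were found for 10 of the 190, all 10 higher in replicate 2, against 196 of the 10954. A rule that asks for a low library favours such counts. In 4 IDs FaWRKY71-RNAi replicate 1 had no count after rounding, which with a floor of 3 counts in that library puts it at least 24.1-fold below the control mean for FvH4_4g03600.1, 25.9-fold for FvH4_5g26790.1, 27.5-fold for FvH4_2g30830.1 and 68.7-fold for FvH4_3g43220.1. These 4 IDs were named because of their values, and none has whole counts in every library. A further ID, FvH4_2g33170.1, had 3 counts after rounding in FaWRKY71-RNAi replicate 1 and was 32.7-fold below the control mean, with an exact 95% interval from 9.57 to 138.0.

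Near the threshold the choice turned on small differences. FvH4_4g10460.1 was just inside for IDs higher in FaWRKY71-RNAi replicate 1, with 14.3 and 5.96 CPM in FaWRKY71-RNAi replicates 1 and 2, against a control mean of 9.48 CPM. FvH4_6g00580.1 was just outside, with 119.0 and 50.1 CPM in those replicates, against a control mean of 79.6 CPM. In the other direction FvH4_7g18880.1 was just inside, with 3.05 and 7.87 CPM in FaWRKY71-RNAi replicates 1 and 2, against a control mean of 5.24 CPM. FvH4_5g16920.1 was just outside, with 16.5 and 60.8 CPM in those replicates, against a control mean of 24.8 CPM.

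FaWRKY71-RNAi replicate 3 was not used to choose the IDs, and its place is given for each direction. In the 33 IDs higher in replicate 1, replicate 3 was at least 1.5 times the control mean for 16 and within 1.5 times of it for 17. It was never at or below the mean divided by 1.5. Over the 10954 IDs to choose from, these shares were 26% above, 55.7% within and 18.4% below. Replicate 3 lay above all 3 controls for 31 of the 33 IDs, or 93.9%, against 47.7% of the 10954. On the log2 scale it was nearer to replicate 1 for 32 of the 33, or 97%, against 60.6% of the 10954.

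In the 157 IDs higher in replicate 2, FaWRKY71-RNAi replicate 3 was within 1.5 times of the control mean for 120, or 76.4% against 55.7% of the 10954. It was at or below the mean divided by 1.5 for 29, or 18.5%, much as for the 10954 with 18.4%. It was at least 1.5 times the mean for 8, or 5.1% against 26%. Replicate 3 lay inside the range of the 3 controls for 48 IDs, or 30.6% against 11.3% of the 10954. The controls spread more widely in these IDs, with a median coefficient of variation of 10.8% against 6.77%, which favours a place inside their range. Replicate 3 lay below all controls for 86, or 54.8% against 41%, and above all of them for 23, or 14.6% against 47.7%. The log2 level of replicate 3 was nearer to replicate 1 for 72 IDs, or 45.9%, and nearer to replicate 2 for 85, with a median place 0.49 of the way from replicate 2 towards replicate 1. In the 33 IDs of the other direction that place was 0.82, and over the 10954 IDs it was 0.60. Replicate 3 lay between replicates 1 and 2 for 189 of the 190 IDs, against 65.2% of the 10954, but a choice of IDs that are far apart in replicates 1 and 2 favours this. Replicate 3 is a single library, so these counts have no replicate check, and the place was not tested.

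**Figure D4:**
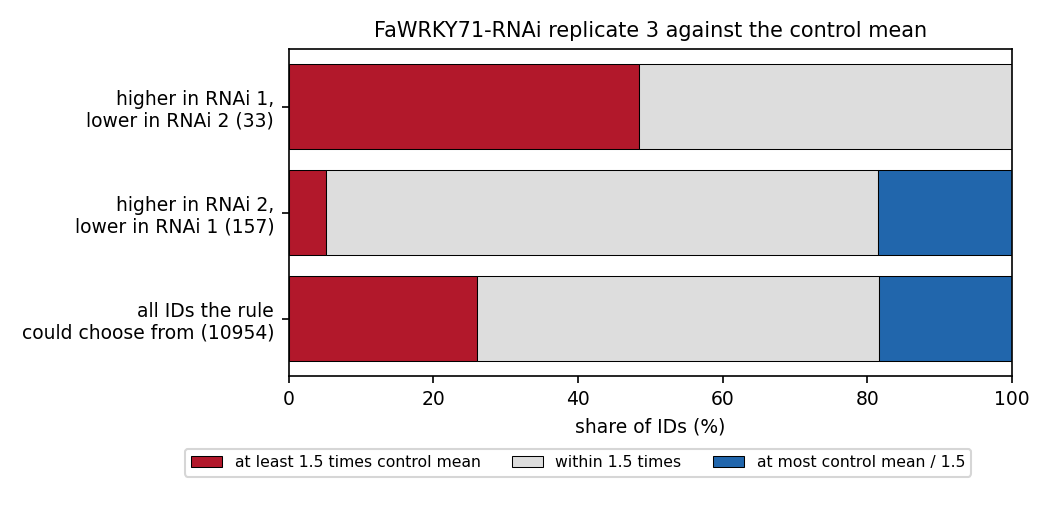
Share of IDs (%) on the horizontal axis by the level of FaWRKY71-RNAi replicate 3 against the control mean, for the opposite-moving IDs of each direction and for all 10954 IDs to choose from. Replicate 3 is high for 16 of the 33 IDs in the top bar and for 8 of the 157 IDs in the middle bar.

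The 8 IDs higher in replicate 2 in which replicate 3 was also high were chosen after their values were seen. Among them, FvH4_1g15940.1 had 4.0, 39.8 and 16.3 CPM in FaWRKY71-RNAi replicates 1 to 3, against 5.30, 6.27 and 6.87 CPM in the controls. FvH4_3g40860.1 had 6.32, 48.9 and 21.1 CPM in the FaWRKY71-RNAi libraries, against 10.9, 10.9 and 10.6 CPM in the controls. In both, replicates 2 and 3 were above every control and replicate 1 was below every control. FvH4_1g09360.1 was the most abundant of the 8, with 29.5, 524.7 and 178.7 CPM in the FaWRKY71-RNAi libraries, against 116.6, 126.1 and 112.1 CPM in the controls.

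The controls were not equal in the opposite-moving IDs either. The rule used the mean of the controls and set no limit on differences among them. Control replicate 3 is part of that mean. A high value there favours passing the 5 CPM limit and the cut for a low library. Some IDs counted here, such as FvH4_5g37350.1 with 5.80, 3.45 and 6.44 CPM in the controls, reach 5 CPM only with that library. The share with Control replicate 3 outside the rule is given further below. Control replicate 3 was at least 1.2 times the mean of the other controls, a limit set after the data were seen, for 57 of the 157 IDs higher in FaWRKY71-RNAi replicate 2, or 36.3%, against 8.23% of the 10954 IDs. A limit of 5/4, which was used first, gave 50 of the 157, or 31.8%, against 5.72%, and a limit of 1.5 gave 26, or 16.6%, against 1.35%. It was at or below that mean divided by 1.2 for 9 of the 157, or 5.73%, against 7.5%. Control replicate 3 was the highest control for 83 of the 157 IDs, or 52.9%, against 32.7% of the 10954. Control replicate 1 was at least 1.2 times the mean of the others for 7 of the 157 IDs, or 4.46%, against 5.78% of the 10954. For Control replicate 2 this was 9 of the 157 IDs, or 5.73%, against 5.43%. In the 33 IDs higher in FaWRKY71-RNAi replicate 1, Control replicate 3 was that high for 3 and at or below the mean of the others divided by 1.2 for 4. The genotype of every control column is clear, but its replicate number is less so, since a column name can be read as either of 2 labels.

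The excess was also present in abundant transcripts. Among the 86 of the 157 IDs with a control mean of at least 20 CPM, Control replicate 3 was at least 1.2 times the others for 27, or 31.4%, against 4.37% of the 6698 such IDs to choose from. It was at or below the mean of the others divided by 1.2 for 0 of the 86, against 2.64% of the 6698. Of the 120 of the 157 IDs with whole counts in all libraries, Control replicate 3 was that high for 42, or 35%. Among the 8621 IDs to choose from with whole counts this share was 7.73%. Control replicate 3 was that high for 44 of the 108 IDs with a ratio of at least 4-fold between FaWRKY71-RNAi replicates 2 and 1, or 40.7%. The share was lower, 26.5%, or 13 of 49, where the ratio was smaller, and 8.23% over the 10954. When the rule was run on the mean of Control replicates 1 and 2 alone, which leaves Control replicate 3 outside the choice, 177 IDs were higher in FaWRKY71-RNAi replicate 2, and 137 of them were among the 190. Control replicate 3 was at least 1.2 times the other controls for 80 of these 177, or 45.2%, against 7.72% of the 10961 IDs that this rule could choose from.

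FvH4_6g47700.1 had 54.3, 372.0 and 129.5 CPM in FaWRKY71-RNAi replicates 1 to 3, against 150.3, 177.2 and 335.6 CPM in Control replicates 1 to 3. FvH4_2g30830.1 had 0, 14.3 and 5.57 CPM in the FaWRKY71-RNAi libraries, against 5.43, 4.77 and 15.8 CPM in the controls. With FvH4_4g03600.1 these were the 3 of the 157 IDs in which Control replicate 3 was at least 2 times the mean of the others. FvH4_4g03600.1 passed the limit of 5 CPM only through that library, so nothing is read from this count. All 3 have fractional counts. Among IDs with whole counts, chosen after their values were seen, FvH4_5g17240.1 had 25.3, 398.8 and 118.6 CPM in the FaWRKY71-RNAi libraries, against 105.5, 109.1 and 181.0 CPM in the controls. FvH4_6g11420.1 had 17.7, 102.6 and 32.5 CPM in the FaWRKY71-RNAi libraries, against 52.1, 52.6 and 91.3 CPM in the controls. In these profiles the highest FaWRKY71-RNAi library was replicate 2, the lowest was replicate 1 and the highest control was replicate 3. The rule and the choice of these IDs favour that order, so nothing is read from it.

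The share of IDs with a high Control replicate 3, at the limit of 1.2, also varied beyond the 190 IDs. The control mean that sorted these IDs includes Control replicate 3, so a high value there favours the low classes. How much of the variation in the share comes from this was not tested. It was 19% of the 1185 IDs that were low in FaWRKY71-RNAi replicate 1 and within 1.5 times of the controls in replicate 2, and 13% of the 578 IDs that were high in replicate 2 and within 1.5 times in replicate 1. It was 4.94% of the 4290 IDs within 1.5 times in both, and 3.62% of the 607 IDs that were low in replicate 2 alone. It was 4.68% of the 812 IDs that were high in replicate 1 alone, 6.94% of the 2235 IDs high in both and 10% of the 1158 IDs low in both. In the corner opposite to the 157 it was 8.57%, or 3 of the 35 IDs that were high in replicate 1 and low in replicate 2. The median control level of these 35 was 15.3 CPM, against 38.7 CPM for the IDs within 1.5 times in both. The share depended on abundance, with 14.3% of the IDs to choose from under 20 CPM and 4.37% of the others. Nothing is therefore read from the 3 IDs. Over the 10954 IDs, the log2 ratio of Control replicate 3 to the other controls and the log2 ratio of FaWRKY71-RNAi replicate 2 to replicate 1, which share no library, had a Pearson r of 0.23 and a Spearman rho of 0.15. The log2 ratio of Control replicate 1 to replicate 2 gave a Pearson r of -0.03 against the same FaWRKY71-RNAi ratio. These correlations are across IDs, which are not independent of each other, and were not tested.

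**Figure D5:**
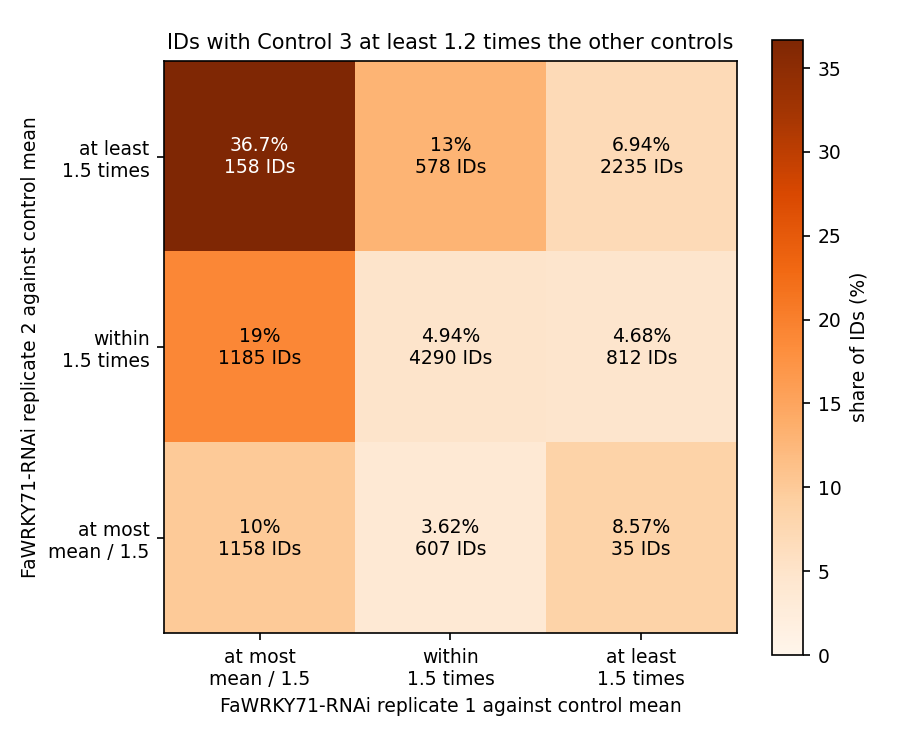
The 11058 IDs with a control mean of at least 5 CPM, by the level of FaWRKY71-RNAi replicate 1 (horizontal axis) and replicate 2 (vertical axis) against the control mean; colour and text give the share (%) in which Control replicate 3 was at least 1.2 times the mean of the other controls. The share is 36.7% in the upper left corner, where replicate 1 is low and replicate 2 is high, and between 3.62% and 19% elsewhere. The control mean includes Control replicate 3, which favours the low classes where that library is high.

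The mean of the 3 FaWRKY71-RNAi libraries was within 1.5 times of the control mean for 161 of the 190 IDs, or 84.7%, against 56.2% of the 10954. It was within 1.2 times for 110 of the 190, against 3118 of the 10954. A rule that takes libraries from both sides of the controls favours such a mean. For 28 of the 190 IDs the mean of the FaWRKY71-RNAi libraries was at least 1.5 times the control mean, against 2907 of the 10954. For 1 of the 190 it was at or below the control mean divided by 1.5, against 1895 of the 10954. All 190 IDs passed the filter on low counts in the test between the genotypes, where edgeR's quasi-likelihood test called 54.3% of the 15547 IDs (Benjamini-Hochberg adjusted p below 0.05). None of the 190 was called, 0 had an unadjusted p below 0.05, and DESeq2 called 1, FvH4_1g15940.1, against 52.8% of the IDs. Without FaWRKY71-RNAi replicate 2, edgeR called 60 of the 190, against 64.1% of the 15967 IDs tested, and without FaWRKY71-RNAi replicate 1 it called 11, against 53.3% of 15899. The rule used the values of these libraries and fixes a wide spread between them, so nothing is read from these counts or from their direction.

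Variation among the controls was larger in the opposite-moving IDs than over the table. The median coefficient of variation over the 3 controls was 10.8% for the 157 IDs higher in FaWRKY71-RNAi replicate 2 and 8.22% for the 33 higher in replicate 1, against 6.77% for the 10954 IDs. The median control mean was 24.2 CPM for the 157 and 13.5 CPM for the 33, against 28.2 CPM for the 10954. The part of abundance in these values was not tested.

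The opposite-moving IDs were scattered over the table. IDs carry a series number after FvH4, and the opposite-moving ones made up between 1.53% and 2% of the IDs to choose from in each of the series 1 to 7. Series with the letter c held 17 IDs to choose from, too few to compare, and no opposite-moving ID. In the order of the table, 4 pairs of opposite-moving IDs were next to each other among the IDs to choose from. Of these pairs 3 moved the same way, among them FvH4_6g39840.1 with FvH4_6g39850.1, both higher in FaWRKY71-RNAi replicate 2. In the remaining pair FvH4_5g17240.1 was higher in replicate 2 and FvH4_5g17290.1 was higher in replicate 1. Since 157 of the 190 IDs were higher in replicate 2, pairs that move the same way are favoured. The number of pairs was not tested, and nothing is read from it. Whole counts in all 6 libraries were found for 146 of the 190 IDs, or 76.8%, against 78.7% of the 10954. IDs with a fractional count in some library were thus about as frequent among them as elsewhere. The part of divided reads in the opposite movement was not tested.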

How the data were processed

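Messenger RNA of 6 libraries, 3 per genotype, was measured by sequencing. Per the labels' protocols, replicates were biological ones, messenger RNA was enriched on its poly(A) tails for a kit that keeps the strand, and read pairs had 100 bases. The sources used here do not say whether replicates were separate plants or lines, and they name no aligner, counter, genome build or annotation. The deposited table gives estimated counts for 28588 IDs. No scaling was visible in it, and between 80.8% and 85.2% of the values above 0 in a library were whole (within 1e-09). Of the IDs, 0 matched the reference table of 77630 genes. Each column was assigned by its library name in the labels. The replicate numbers of the controls follow those names and are less certain than their genotype.

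CPM was the estimated count divided by the column sum, times 1000000. Log2 differences used CPM + 0.5. IDs named were, in each direction, the 2 with the largest ratio between FaWRKY71-RNAi replicates 1 and 2 and the 2 with the highest control mean; others are named as chosen on their values or lie nearest to the threshold. The opposite-moving IDs and the naming rule were chosen with earlier results of these data known. Genotypes were compared on rounded counts of all 6 libraries with edgeR 4.0.16 in R 4.3.3 (filterByExpr, TMM, robust quasi-likelihood F test with no term but genotype, Benjamini-Hochberg adjustment); the fit was tested on simulated data. DESeq2 1.42.0 was an alternative, with other scalings, folds, abundance limits and left-out libraries. The p-values set the difference between the genotypes against the spread between these libraries. Whether that spread is one of plants or of lines is not known. At depths of 8385218 to 10000538 counts per library, 3 counts correspond to between 0.300 and 0.358 CPM. Exact intervals (Clopper-Pearson, 95%) and this floor cover counting error only, since reads can be copies of 1 molecule.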

Additional observations from a re-analysis of the deposited data

How the results depend on the processing

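The count of 190 opposite-moving IDs, 33 higher in FaWRKY71-RNAi replicate 1 and 157 higher in replicate 2, depended on the limits of the rule and on the pair of libraries. A fold of 5/4 gave 530 IDs (137 and 393) and a fold of 2 gave 37 (5 and 32). A control mean of at least 1 CPM gave 373 (81 and 292) and one of at least 20 CPM gave 100 (14 and 86). IDs with FaWRKY71-RNAi replicate 3 within 1.5 times of the control mean numbered 137 in all, and 407, 26, 246 and 73 under those limits. Other pairs of FaWRKY71-RNAi libraries gave 10 (replicates 1 and 3) and 45 (replicates 2 and 3).

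TMM gave 160 IDs, median-of-ratios 149 and upper-quartile 136, and they shared 130, 116 and 97 with the 190. Upper-quartile scaling left 101 IDs higher in replicate 2 and 35 higher in replicate 1; it moved the median log2 difference from the controls over the 10954 IDs to -0.16 in FaWRKY71-RNAi replicate 1 and -0.20 in replicate 2, from 0.06 and 0.09 with column sums, and TMM moved it to -0.10 and -0.06. The excess of IDs higher in replicate 2 was found with each of these scalings. Without Control replicates 1, 2 or 3 in turn the counts ranged from 182 to 213. Keeping the abundant and named IDs, and running the rule without Control replicate 3 to look at that library, were chosen after seeing the data. So were the limits for a high Control replicate 3: the limit of 1.2 replaced one of 5/4 after the values of both were known, and the number of such IDs among the 157 was 57, 50 and 26 at limits of 1.2, 5/4 and 1.5.

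Between the genotypes 8435 IDs were called, and from 6823 to 10241 when a library was left out. Of the 190, edgeR called from 0 to 60 when a library was left out, against 64.1% of the IDs tested in the fit that gave 60. With other scalings edgeR called 0 of the 190, against 8286 to 8623 of the 15547 IDs tested. Without the filter it called 0 of the 190, against 8765 of 23633, and DESeq2 called 1, against 52.8%. The rule used these values, so nothing is read from these calls. With the replicate block 0 of the 190 were called, against 7611 of the 15547 IDs tested. Same-numbered libraries deviated from their genotype means with correlations of 0.09, -0.04 and 0.03. These low values do not settle whether samples were paired, since the replicate numbers of the controls are uncertain. Folds in the lower library rest on fewer than 30 counts for 37 IDs, where depth limits them.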
